A study of Homo sapiens with 6 samples.

Results

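The 10 genes described here encode the peroxiredoxins PRDX1, PRDX2, PRDX3, PRDX4, PRDX5 and PRDX6, the glutathione peroxidases GPX1 and GPX4, thioredoxin (TXN) and glutathione reductase (GSR). They were taken by gene symbol, and all 10 were found among the 17318 genes of each library. RNA was measured in SNU216 cells, an established human gastric cancer line, 48 h after transfection with a control siRNA (siControl, 3 libraries) or with siRNA to the oxytocin receptor gene OXTR (siOXTR, 3 libraries). Both groups were the same line, kept in RPMI1640 with serum, and differed, per the labels, in the siRNA alone; how many siRNAs were used, and their sequences, is not stated. Separate cultures are not named in the labels, so the 3 libraries of a group may be technical repeats and p-values cover their spread alone. In bulk RNA, fewer cells of a kind and less RNA per cell cannot be told apart.

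Peroxiredoxins are abundant enzymes that reduce hydrogen peroxide, organic peroxides and peroxynitrite with a reactive cysteine. Most are returned to their reduced form by thioredoxin, which is itself reduced by thioredoxin reductase at the cost of NADPH. Glutathione peroxidases do similar work with glutathione, GPX1 and GPX4 through a selenocysteine, and glutathione reductase returns oxidised glutathione to its reduced form. The members sit in different compartments: PRDX1, PRDX2 and PRDX6 mainly in the cytosol, PRDX3 in mitochondria, PRDX5 in mitochondria, peroxisomes and cytosol, and PRDX4 in the endoplasmic reticulum (ER).

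Levels are in FPKM, which counts fragments against transcript length and the library's mapped fragments. The FPKM of a library summed to between 417829 and 434167 in siControl and to between 446246 and 459595 in siOXTR, and sequencing depth is unknown. Across 11550 genes Pearson's r lay between 0.995 and 0.998 within a group and between 0.974 and 0.976 across groups. OXTR, the targeted gene, had 39.1 ± 0.257 FPKM in the control and 4.92 ± 0.371 FPKM after its knockdown (SD, n = 3 each), and its groups did not overlap. The epithelial markers EPCAM, KRT8, KRT18, KRT19, CDH1 and CLDN4 were all detected. They summed to between 7016 and 8089 FPKM in siControl and between 8053 and 8218 FPKM in siOXTR. Most of each sum came from KRT8, KRT18 and KRT19, with siControl means of 2877, 2194 and 1701 FPKM. By contrast, CDH1 fell 3.8-fold in siOXTR (means 76.1 and 20 FPKM), EPCAM 2-fold (291 and 145 FPKM) and CLDN4 1.33-fold (460 and 346 FPKM). The 5 of 6 listed fibroblast markers found in the files summed to between 1.62 and 2.02 FPKM in siControl and between 0.61 and 0.81 FPKM in siOXTR. Of 8 listed blood and endothelial markers 7 were measured. They summed to between 10.4 and 12.1 FPKM in siControl and between 9.66 and 10.7 FPKM in siOXTR. CD68 made up 8.61 ± 0.766 and 7.4 ± 0.0577 FPKM of these sums. PTPRC had means of 0.757 and 1.23 FPKM in that order, LYZ 0.773 and 1.03 FPKM, and CDH5 0.717 and 0.397 FPKM. CD3E, PECAM1 and VWF stayed at or below 0.12 FPKM. The part of such cells in the results was not tested.

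All 10 genes passed the filter of a mean of at least 1 FPKM, and none needed a high group to pass it. In siOXTR 6 of the 10 genes rose (PRDX2, PRDX5, GPX1, GPX4, TXN and GSR), PRDX4 fell, and PRDX1, PRDX3 and PRDX6 did not pass the threshold (limma on log2(FPKM + 1), Benjamini-Hochberg adjusted p under 0.05 over 11550 genes). Against this, 59.8% of all tested genes were called, 42.2% higher and 17.6% lower. The groups did not overlap in 7 of the 10 genes, against 64.4% of all tested genes. The share of members called was thus close to the background. The median of the log2 fold changes was 0.28 for the 10 genes and 0.13 for all tested genes.

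Small rises depend on how libraries are scaled to each other. TMM scaling, which sets the libraries level by a trimmed mean of gene ratios, lowered the median over all tested genes by 0.11 on the log2 scale, to 0.016. After it, 43.9% of tested genes were called, 19.8% higher and 24.2% lower. Of the 10 genes, 5 were higher after TMM scaling (PRDX5, GPX1, GPX4, TXN and GSR) and PRDX4 was lower, while PRDX2 no longer passed. The median of the 10 genes was then 0.16.

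**Figure D1:**
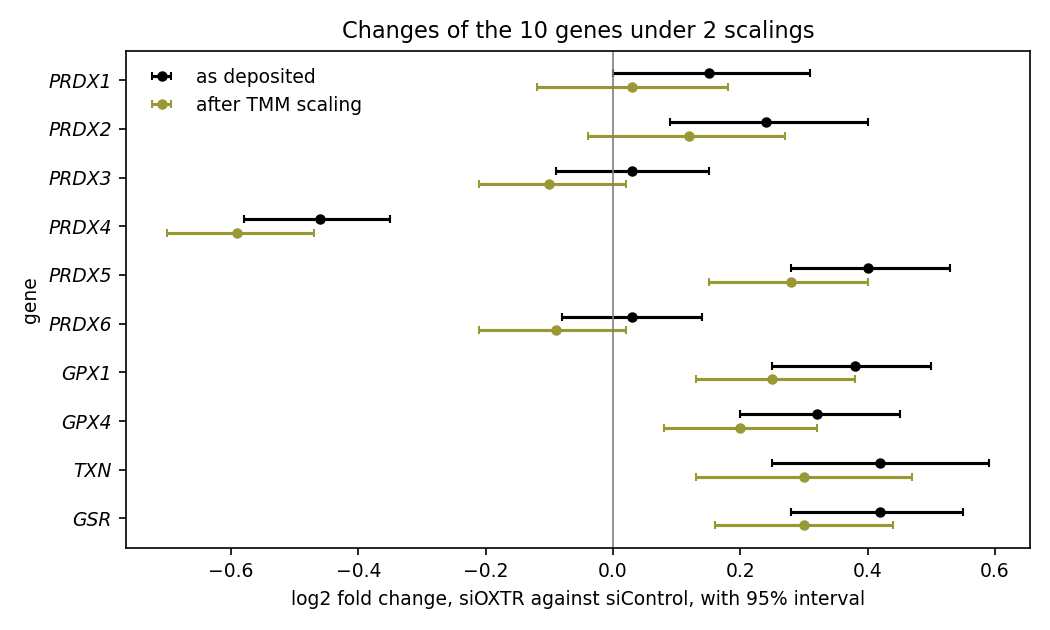
Log2 fold change of each gene in siOXTR against siControl (horizontal axis) on the log2(FPKM + 1) scale, with the 95% interval of the limma fit from 3 libraries a group, as deposited (black) and after TMM scaling (olive). PRDX4 lies below 0 and PRDX5, GPX1, GPX4, TXN and GSR above 0 under both, whereas the sign of PRDX3 and PRDX6 differs between them.

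PRDX4 is the peroxiredoxin that enters the ER, where it oxidises protein disulfide isomerases with hydrogen peroxide and so feeds disulfide bond formation. It was at 69.15, 68.27 and 72.03 FPKM in siControl replicates 1, 2 and 3 and at 47.96, 50.75 and 52.48 FPKM in the siOXTR replicates. Every siOXTR library was below every siControl library. The mean went from 69.8 ± 1.97 to 50.4 ± 2.28 FPKM, 1.39-fold lower, with a log2 fold change of -0.46 (SE 0.053, 95% interval -0.58 to -0.35, adjusted p = 1.79e-05, limma). Among all tested genes 9.08% had a lower log2 fold change. TMM scaling gave -0.59 (adjusted p = 1.72e-06, limma).

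PRDX5, a peroxiredoxin with targeting signals for mitochondria and peroxisomes, moved the other way. It was at 163.37, 175.25 and 177.17 FPKM in siControl and at 215.29, 232.54 and 234.82 FPKM in siOXTR, with no overlap. Its mean rose 1.32-fold, from 172 ± 7.48 to 228 ± 10.7 FPKM (log2 fold change 0.40, SE 0.057, adjusted p = 9.75e-05, limma).

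PRDX2, a cytosolic enzyme best known from red blood cells, was at 108.16, 130.82 and 123.48 FPKM in siControl and at 147.15, 148.23 and 132.98 FPKM in siOXTR. The highest siControl value, 130.82 FPKM, lay just below the lowest siOXTR value, 132.98 FPKM. Its log2 fold change was 0.24 (SE 0.072, adjusted p = 0.0122, limma) as deposited and 0.12 (adjusted p = 0.201) after TMM scaling. The call was also lost without siControl replicate 1 (0.16, adjusted p = 0.0522) and without siOXTR replicate 2 (0.21, adjusted p = 0.0508). With equal FPKM sums PRDX2 was not called either (0.16, adjusted p = 0.0556, limma).

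PRDX1, PRDX3 and PRDX6 overlapped between the groups. PRDX1, the most abundant of the 10 genes and a major cytosolic peroxidase, was at 501.14, 559.02 and 598.85 FPKM in siControl and at 581.04, 639.13 and 622.67 FPKM in siOXTR. Its log2 fold change of 0.15 had an interval of 0.00 to 0.31 (adjusted p = 0.0748, limma), and it passed the threshold without siControl replicate 3 (0.21, adjusted p = 0.02) and without siOXTR replicate 1 (0.19, adjusted p = 0.0475). It fell short by more without siControl replicate 1 (0.09, adjusted p = 0.27) and without siOXTR replicate 2 (0.12, adjusted p = 0.222). At this number of libraries the interval for PRDX1 ran from no change to a rise of 0.31 as deposited and from -0.12 to 0.18 after TMM scaling.

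PRDX3, the mitochondrial enzyme reduced by thioredoxin 2, was at 98.73, 100.71 and 105.37 FPKM in siControl and at 99.85, 108.93 and 102.37 FPKM in siOXTR. Its log2 fold change was 0.03, with an interval of -0.09 to 0.15. PRDX6, which uses a single cysteine and glutathione and also acts as a phospholipase, was at 304.83, 305.22 and 311.03 FPKM in siControl and at 302.70, 326.64 and 311.92 FPKM in siOXTR. Its log2 fold change was 0.03, with an interval of -0.08 to 0.14. Both intervals left out changes as large as those of PRDX4 and PRDX5; after TMM scaling both log2 fold changes were below 0 (-0.10 for PRDX3 and -0.09 for PRDX6) and were not called.

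**Figure D2:**
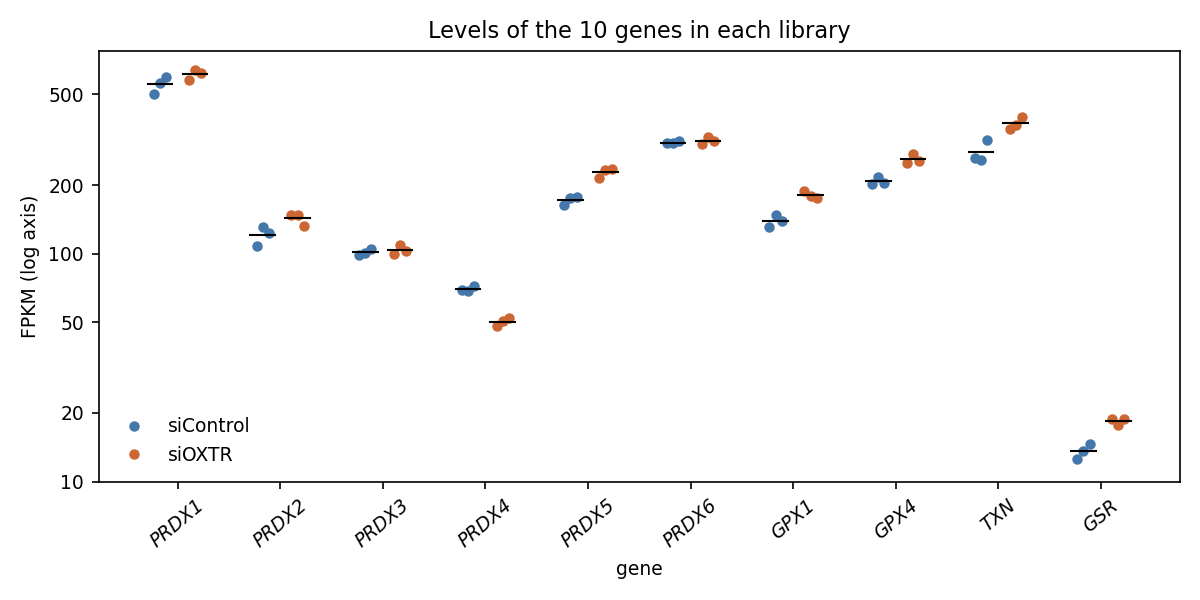
FPKM of each gene (vertical log axis) in the 3 siControl (blue) and 3 siOXTR (orange) libraries, each point 1 library and each bar the group mean. The 3 siOXTR points of PRDX4 (47.96 to 52.48 FPKM) lie below its siControl points, and those of PRDX2, PRDX5, GPX1, GPX4, TXN and GSR lie above theirs.

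GPX1 and GPX4 rose, as did GSR, the reductase that recycles their substrate. GPX1, the main selenium-dependent peroxidase of the cytosol and mitochondria, was at 131.37, 147.78 and 138.87 FPKM in siControl and at 189.41, 179.58 and 174.86 FPKM in siOXTR. Its mean rose 1.30-fold, from 139 ± 8.22 to 181 ± 7.42 FPKM (log2 fold change 0.38, SE 0.058, adjusted p = 0.000189, limma). GPX4, which reduces lipid peroxides in membranes and restrains ferroptosis, was at 203.08, 216.83 and 204.47 FPKM in siControl and at 251.23, 275.03 and 256.50 FPKM in siOXTR. It rose 1.25-fold (log2 fold change 0.32, SE 0.056, adjusted p = 0.000424, limma). Neither gene's groups overlapped.

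GSR, which reduces glutathione disulfide with NADPH, had the lowest level of the 10 genes, at 12.61, 13.60 and 14.55 FPKM in siControl and 18.88, 17.73 and 18.72 FPKM in siOXTR. The mean rose 1.36-fold, from 13.6 ± 0.97 to 18.4 ± 0.623 FPKM (log2 fold change 0.42, SE 0.063, adjusted p = 0.000167, limma). Of all tested genes 93.4% had a lower log2 fold change.

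TXN, the cytosolic thioredoxin that reduces peroxiredoxins, ribonucleotide reductase and many transcription factors, was at 263.54, 258.20 and 314.93 FPKM in siControl and at 352.16, 368.75 and 397.91 FPKM in siOXTR. Replicate 3 was the highest of its group in both cases, and every siControl library lay below every siOXTR library. The mean rose 1.34-fold, from 279 ± 31.3 to 373 ± 23.2 FPKM (log2 fold change 0.42, SE 0.077, adjusted p = 0.000639, limma).

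FPKM is per length, so the levels of different genes can be set side by side. The lengths used and the counting of reads shared with near copies are not stated, which limits this ranking. In siControl the order by mean FPKM was PRDX1 (553), PRDX6 (307), TXN (279), GPX4 (208), PRDX5 (172), GPX1 (139), PRDX2 (121), PRDX3 (102), PRDX4 (69.8) and GSR (13.6). Only PRDX6 and TXN overlapped among neighbours in that order. In siOXTR the means were 614 for PRDX1, 373 for TXN, 314 for PRDX6, 261 for GPX4, 228 for PRDX5, 181 for GPX1, 143 for PRDX2, 104 for PRDX3, 50.4 for PRDX4 and 18.4 for GSR. No neighbours overlapped there, and TXN stood above PRDX6. The 10 genes summed to between 1856 and 2061 FPKM in siControl, 0.444% to 0.475% of a library's total, and to between 2206 and 2347 FPKM in siOXTR, 0.494% to 0.511% of it.

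A ratio between genes of 1 library does not depend on scaling, so each gene was also set against the geometric mean of the other 9. These ratios are over members chosen for this description and carry no test. PRDX4 was at -1.04, -1.16 and -1.12 on this log2 scale in siControl and at -1.89, -1.87 and -1.79 in siOXTR, a difference of -0.74 between the group means. Against the other 5 peroxiredoxins alone it went from -1.55 ± 0.066 to -2.19 ± 0.062 (SD, n = 3 each), a difference of -0.64.

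The other ratios moved less than that of PRDX4. GSR, TXN, PRDX5, GPX1 and GPX4 were higher relative to the rest in siOXTR, by 0.27, 0.25, 0.23, 0.20 and 0.14 on the log2 scale. PRDX3 and PRDX6 were lower relative to the rest, with differences of -0.19 and -0.18, and their groups did not overlap either. PRDX1 and PRDX2, with differences of -0.05 and 0.05, overlapped. Since every ratio contains PRDX4 in its numerator or denominator, its fall raises the ratios of the other genes.

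**Figure D3:**
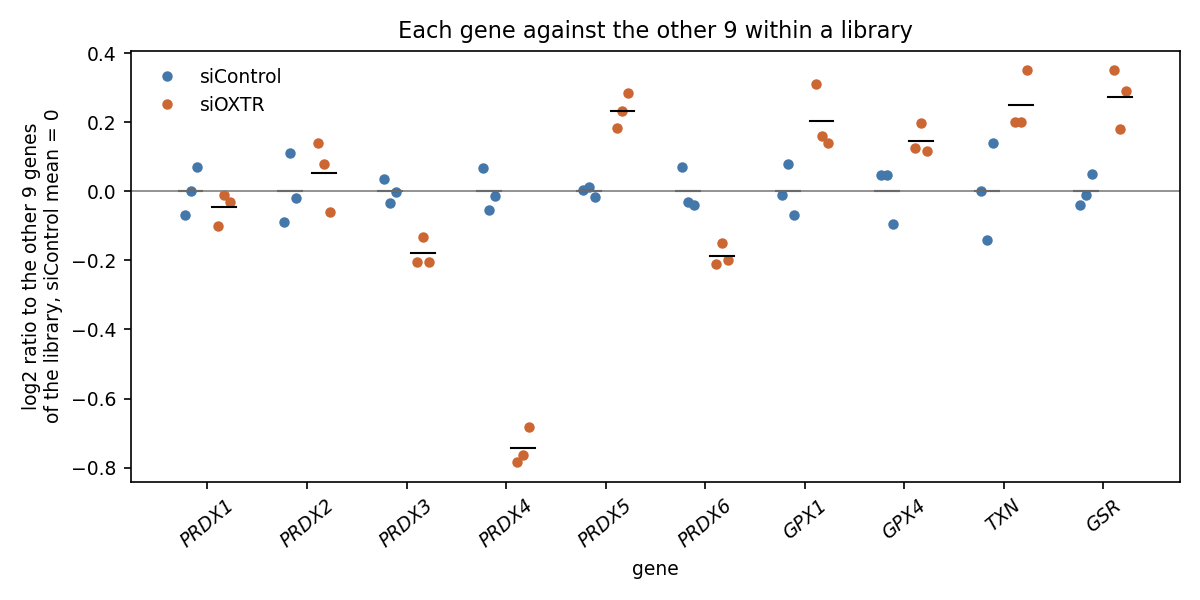
Log2 ratio of each gene to the geometric mean of the other 9 in the same library (vertical axis), drawn relative to the siControl mean of that gene. Points are libraries (blue siControl, orange siOXTR) and bars are group means; PRDX4 has the lowest siOXTR mean, and PRDX1 and PRDX2 are the genes whose points overlap.

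The sequence before a RefSeq start site is shown for some members. RefSeq windows (GRCh38.p14) were matched for 7 of the 10 genes, and not for PRDX1, PRDX6 and GSR. The longest stretch of a window outside annotated exons is printed for 4 genes with different calls: PRDX4 (lower), PRDX3 (not called), and GPX4 and TXN (higher). The PRDX4 stretch belongs to a RefSeq start that lies inside the gene as GENCODE release 29 draws it (from 23664262), so it is upstream of that start and not of the whole gene. Capitals mark CACGTG, a palindrome bound by several basic helix-loop-helix factors.
PRDX4, chrX:23667243-23667445, plus strand: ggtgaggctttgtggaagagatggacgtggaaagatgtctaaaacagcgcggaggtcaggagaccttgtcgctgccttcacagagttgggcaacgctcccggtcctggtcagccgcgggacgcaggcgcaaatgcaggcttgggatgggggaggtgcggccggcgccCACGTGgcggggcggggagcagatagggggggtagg
PRDX3, chr10:119178834-119179062, minus strand: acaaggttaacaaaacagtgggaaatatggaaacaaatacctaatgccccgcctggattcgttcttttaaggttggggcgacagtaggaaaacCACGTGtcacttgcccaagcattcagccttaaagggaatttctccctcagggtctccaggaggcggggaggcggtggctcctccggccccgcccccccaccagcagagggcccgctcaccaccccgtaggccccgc
GPX4, chr19:1103744-1103925, plus strand: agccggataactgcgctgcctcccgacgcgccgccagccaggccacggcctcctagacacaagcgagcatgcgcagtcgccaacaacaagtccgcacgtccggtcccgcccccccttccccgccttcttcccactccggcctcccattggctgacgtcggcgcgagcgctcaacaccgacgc
TXN, chr9:110256641-110256757, minus strand: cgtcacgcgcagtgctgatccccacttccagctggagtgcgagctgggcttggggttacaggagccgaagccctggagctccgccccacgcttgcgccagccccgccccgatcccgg

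The 7 matched genes had 10 windows of 250 bases, and the percentages below are of windows, not of genes. In the 250 bases before a start site, CACGTG was present in 3 of the 7 matched genes (PRDX4, PRDX3 and GPX1) and in 6.34% of 35116 windows of that length. Its first base lay 83, 157 and 24 bases before the start in PRDX4, PRDX3 and GPX1. The longest exon-free run of the GPX1 window is 3 bases, shorter than CACGTG, so the GPX1 match overlaps an annotated exon. PRDX4 and PRDX3 are thus the genes with a match outside exons. In that order, these 3 genes were called lower, not called and called higher. TGACNNNGC, the core of the antioxidant response element, was searched on both strands and was in none of the 7 and in 10.9% of all windows. CCAAT, also searched on both strands, was present in GPX4 and in 32% of all windows. These letters were searched after the sequences had been seen, and a match is a description, not a site.

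Cytosolic enzymes that keep thioredoxin and the peroxiredoxins working, TXNRD1 and SRXN1, rose. They belong to a list whose share of higher calls and median log2 fold change, as deposited, were below those of all tested genes. Of 20 tested thioredoxin and glutaredoxin partners 7 rose and none fell, against 42.2% and 17.6% of all tested genes. The median log2 fold change was 0.11, against 0.13. After TMM scaling 6 were higher and 1 was lower, against 19.8% and 24.2% of all tested genes. TXNRD1, the cytosolic thioredoxin reductase, was at 108.19, 98.89 and 106.29 FPKM in siControl and at 162.59, 155.54 and 160.90 FPKM in siOXTR. It rose 1.53-fold (log2 fold change 0.61, adjusted p = 1.52e-06, limma), beside 1.34-fold for TXN. SRXN1, sulfiredoxin, which repairs overoxidised peroxiredoxins, rose 1.37-fold, from 94.8 ± 4.56 to 130 ± 3.77 FPKM.

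Of the mitochondrial pair, the thioredoxin gene passed the threshold and the reductase gene fell just short of it. TXN2, mitochondrial thioredoxin, rose from 22.7 ± 0.612 to 27.9 ± 1.23 FPKM (log2 fold change 0.29), and its reductase TXNRD2 was at 9.16 ± 0.573 and 10.4 ± 0.566 FPKM (0.16, adjusted p = 0.0528). TXNRD2 did pass without siControl replicate 1 (0.21, adjusted p = 0.0285) and with the replicate number as a block (adjusted p = 0.0364), but not after TMM scaling (0.05). TXNIP, a protein that binds and inhibits thioredoxin, was at 260 ± 6.12 and 283 ± 0.653 FPKM (log2 fold change 0.12, adjusted p = 0.0513, limma) and at -0.0033 after TMM scaling; it passed with no filter on low values (adjusted p = 0.0466) and with the block (adjusted p = 0.0381). SESN2, a stress-induced sestrin, rose 1.48-fold, the mitochondrial glutaredoxin gene GLRX2 1.45-fold and TXNL1, a thioredoxin-like proteasome partner, 1.27-fold. GLRX3, an iron-sulfur glutaredoxin, had a log2 fold change of 0.19, a call lost after TMM scaling (0.06). The GLRX3 call was also lost with equal FPKM sums (0.10, adjusted p = 0.123, limma) and without siOXTR replicate 2 (0.15, adjusted p = 0.0783).

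The enzymes that make glutathione, the substrate of GPX1 and GPX4, rose. Of 7 tested genes in the list of glutathione synthesis and other glutathione peroxidases 5 rose and 1 fell (median 0.36), against 42.2% and 17.6% of all tested genes. After TMM scaling 4 were higher and 2 lower, against 19.8% and 24.2%. GCLC and GCLM, the catalytic and modifier subunits of the rate-limiting ligase, rose 1.59-fold (47.6 ± 2.06 to 75.8 ± 2.32 FPKM) and 1.51-fold (14.8 ± 1.41 to 22.4 ± 0.286 FPKM). GSS, glutathione synthetase, rose 1.28-fold. SLC7A11, the cystine transporter, was low and rose from 2.81 ± 0.395 to 3.66 ± 0.186 FPKM. This call was lost after TMM scaling (adjusted p = 0.0752) and with equal FPKM sums (adjusted p = 0.052, limma). CHAC1, which degrades glutathione, rose from 1.19 ± 0.352 to 2.78 ± 0.146 FPKM.

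Of the remaining glutathione peroxidases, GPX2 lay between 0 and 0.24 FPKM and GPX7 between 0 and 0.04 FPKM and were not tested. GPX3, a secreted enzyme, held 4.2 ± 0.804 and 3.5 ± 0.134 FPKM and was not called as deposited (log2 fold change -0.20, adjusted p = 0.0921). It was called lower after TMM scaling (-0.30, adjusted p = 0.024), with equal FPKM sums (-0.27, adjusted p = 0.0304) and without siControl replicate 1 (-0.28, adjusted p = 0.04), and was at -0.08 without siControl replicate 2. GPX8, an ER membrane peroxidase, was the gene of that list that fell as deposited, from 12.36, 11.92 and 12.21 FPKM in siControl to 8.40, 8.32 and 8.71 FPKM in siOXTR. Its log2 fold change of -0.47 (adjusted p = 2.61e-05, limma) stands beside -0.46 for PRDX4.

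All 4 tested genes of superoxide dismutases and catalase rose (median 0.27), against 42.2% of all tested genes. After TMM scaling 2 of them, CAT and CCS, were higher, against 19.8%. CAT, catalase of the peroxisome, rose 1.21-fold, from 41.3 ± 1.21 to 50 ± 1.02 FPKM. CCS, the copper chaperone of SOD1, rose 1.35-fold. SOD1 and SOD2, the cytosolic and mitochondrial dismutases, had log2 fold changes of 0.28 and 0.17 as deposited and 0.15 and 0.04 after TMM scaling. Without siControl replicate 1 that of SOD1 was 0.18 (adjusted p = 0.0291). The SOD2 call was also lost without siControl replicate 2, siOXTR replicate 2 or siOXTR replicate 3 (adjusted p = 0.0597, 0.0719 and 0.0522). With equal FPKM sums SOD2 was not called either (0.08, adjusted p = 0.259, limma).

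The tested ER partners of PRDX4 fell with it. Of 11 listed genes of ER thiol oxidation 9 were tested, while ERO1B and GPX7 lay below the filter. All 9 tested genes fell, against 17.6% of all tested genes (24.2% after TMM scaling). Their median log2 fold change was -0.90 as deposited and -1.02 after TMM scaling. GPX8, also in the list of glutathione synthesis and other glutathione peroxidases, is among the 9. Like the other lists, this one was picked when earlier results of these data were known. Its count of lower calls is therefore a description and not independent evidence of a shared fall. ERO1A, the oxidase that charges protein disulfide isomerase and releases hydrogen peroxide, went from 90.5 ± 7.32 to 32 ± 0.871 FPKM, 2.83-fold lower. QSOX1, a sulfhydryl oxidase of the secretory pathway, was 3.01-fold lower. The disulfide isomerase P4HB fell 1.87-fold, from 379 ± 19.7 to 203 ± 3.86 FPKM, and PDIA3, PDIA4 and PDIA6 fell 2.04-fold, 2.16-fold and 1.81-fold. VKORC1, which reduces vitamin K epoxide in the vitamin K cycle, had the smallest fall of the 9, at -0.32 beside -0.46 for PRDX4.

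GPX1 and GPX4 need the selenocysteine machinery. Of the 8 genes of selenoprotein synthesis 5 rose and none fell (median 0.20), against 42.2% higher and 17.6% lower among all tested genes. After TMM scaling 2 of the 8 were higher, close to the 19.8% of all tested genes. SEPHS2, which makes the selenium donor, rose 1.23-fold, from 56.6 ± 2.34 to 69.8 ± 0.82 FPKM, and SEPSECS, the enzyme that forms selenocysteine on its tRNA, 1.31-fold; these 2 were the genes higher after TMM scaling. SECISBP2, TRNAU1AP and SEPHS1 had log2 fold changes of 0.19, 0.26 and 0.18, none of them called after TMM scaling. With equal FPKM sums TRNAU1AP stayed called (adjusted p = 0.045, limma), whereas SECISBP2 and SEPHS1 did not (adjusted p = 0.162 and 0.219). The SEPHS1 call was also lost without siControl replicate 1, siOXTR replicate 2 or siOXTR replicate 3 (adjusted p = 0.0771, 0.0581 and 0.0998).

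Other selenoprotein genes moved both ways. Of 16 tested 7 rose and 2 fell, near the 42.2% and 17.6% of all tested genes, and the median of 0.10 was below the overall 0.13. After TMM scaling 5 were higher and 5 lower, against 19.8% and 24.2%. The 7 that rose include TXNRD1 and SEPHS2, which are also in the lists above. The 5 lower after TMM scaling include GPX3, which is also in the list with glutathione synthesis. SELENOK, an ER membrane protein, rose 1.37-fold and SELENOH 1.25-fold, close to the 1.30-fold of GPX1 and the 1.25-fold of GPX4. SELENON, an ER membrane glycoprotein, fell from 21.6 ± 0.727 to 10.7 ± 0.605 FPKM, and SELENOI, an enzyme of phospholipid synthesis, from 11.9 ± 0.828 to 8.47 ± 0.4 FPKM.

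**Figure D4:**
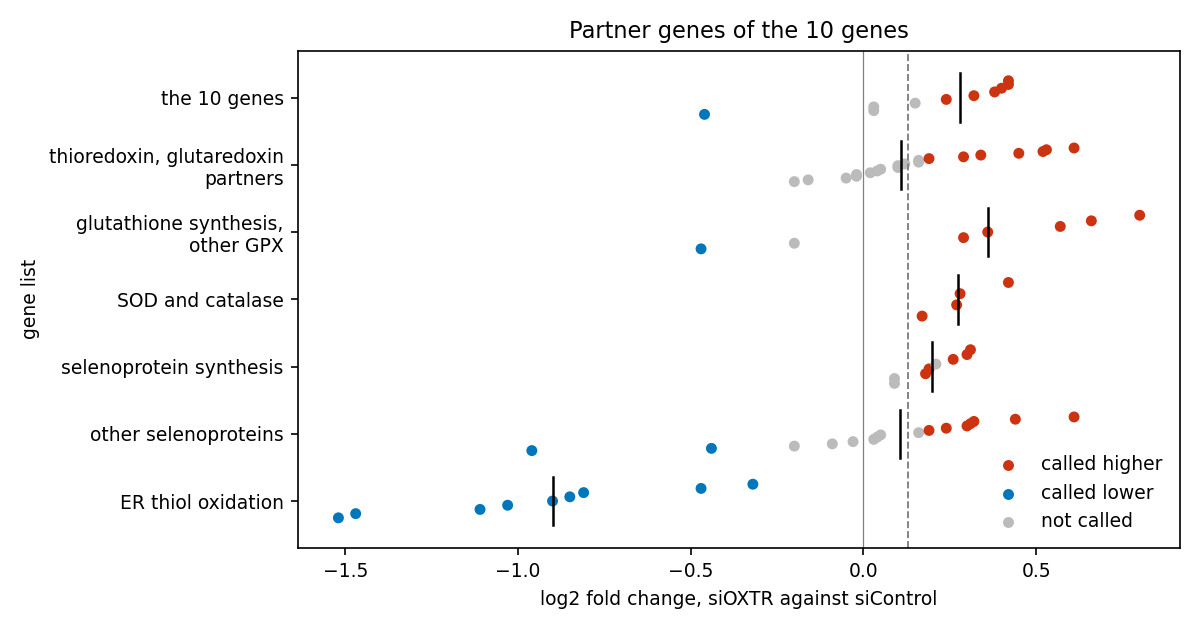
Log2 fold change in siOXTR against siControl (horizontal axis) of every tested gene in each list, coloured by call (red higher, blue lower, grey not called); black ticks are list medians and the dashed line is the median of all tested genes, 0.13. The 9 ER thiol oxidation genes are all blue, and PRDX4 is the blue point among the 10 genes.

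Some members have near copies or overlaps in the genome that the deposited values do not resolve. In GENCODE release 29 (GRCh38) TXN has 7 pseudogenes by name, PRDX2 and PRDX3 have 4 each, GPX1 has 2, and PRDX1 and PRDX4 have 1 each. None of these pseudogenes is among the genes of the libraries, and how shared reads were counted is not stated. GPX1 itself is typed as a polymorphic pseudogene in that release, whereas the other members are typed as protein coding. PRDX1 (chromosome 1, 45511036 to 45523047) shares 379 exonic bases with MMACHC on the opposite strand. Whether counting used strand is not stated, and MMACHC had 3.11 ± 0.23 FPKM in the siControl and 3.88 ± 0.414 FPKM in the siOXTR libraries, far below PRDX1. PRDX2 (chromosome 19, 12796820 to 12801859) shares 296 exonic bases with an antisense RNA, AC018761.2, which is not a row in the files. PRDX4 spans 23664262 to 23686399 on chromosome X, GPX4 1103926 to 1106791 on chromosome 19, and TXN 110243811 to 110256640 on chromosome 9. PRDX3 spans 119167703 to 119178833 on chromosome 10, PRDX5 64318088 to 64321811 on chromosome 11, PRDX6 173477266 to 173488807 on chromosome 1 and GPX1 49357171 to 49358600 on chromosome 3; GSR lies on chromosome 8.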

How the data were processed

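The deposited values are FPKM, 1 value per gene and library, per the file headers, rounded to 2 decimals. Per the labels' protocols, RNA was extracted with Trizol and libraries made for BGISEQ-500. GRCh38.p13 is the build named in the submitters' processing notes; aligner, quantifier, annotation and filters: not given in the sources used here. Low values were searched for whole-fragment steps; the best coherence was 0.177 to 0.224 of a possible 1 at differing depths, so no depth was recovered and no count model was used. The 11550 genes whose mean reached 1 FPKM were fitted as log2(FPKM + 1) by limma (version 3.58.1, under R 4.3.3; group as the only term, variance trend, robust prior, two-sided), checked on simulated data. This scale understates changes of low genes, and "-fold" values are ratios of mean FPKM. TMM factors were unweighted and computed from the FPKM of tested genes. Alternatives were a pseudocount of 0.1, no filter, TMM scaling, equal FPKM sums, limma without trend and robust prior, a replicate block, and leaving out each library. The members and gene lists were chosen with earlier results of these data known. Partner genes named are a group picked by function plus up to 4 called genes a list with the largest change; others were named after their values were seen. Exon-free upstream stretches come from RefSeq windows and GENCODE release 29.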

Additional observations from a re-analysis of the deposited data

How the results depend on the processing

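PRDX4, PRDX5, GPX1, GPX4, TXN and GSR kept their direction and their call under all 12 alternatives, with log2 fold changes of -0.59 to -0.43 for PRDX4 and of 0.20 to 0.51 for the other 5. PRDX3 was at -0.10 and PRDX6 at -0.09 after TMM scaling, both at -0.06 with equal FPKM sums, and without single libraries PRDX3 ran from -0.01 (without siOXTR replicate 2) to 0.06; TXNIP was at -0.0033 after TMM scaling. PRDX2 was at 0.12 after TMM scaling and 0.16 (adjusted p = 0.0556) with equal sums. The count of genes called higher was 4869 as deposited, 2282 after TMM scaling and 2956 with equal sums. Under TMM scaling and equal sums, in that order, genes called higher numbered 2 and 3 of the superoxide dismutases and catalase and 2 and 3 in selenoprotein synthesis. Genes called lower numbered 1 and 1 among thioredoxin partners, 2 and 2 in glutathione synthesis and other peroxidases, and 5 and 4 among other selenoproteins; limma without trend and robust prior called 1 thioredoxin partner lower. Leaving out single libraries gave 0 to 2 thioredoxin partners and 1 to 2 glutathione genes lower. Same-numbered libraries had correlated deviations of 0.11, 0.00 and 0.16, and 1 of 3 siControl libraries correlated best with its own number, so the numbers were not taken as pairs. With the replicate block 7205 genes were called in place of 6905, and PRDX1 passed (log2 fold change 0.15, adjusted p = 0.0127, limma). Depth is unknown, so counting error could not be separated from the spread between libraries.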

Other observations

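Ratios between single members of a library, which do not depend on scaling, are given as values with no test. The ratio of PRDX1 to PRDX4 was 7.92 ± 0.583 in siControl and 12.2 ± 0.37 in siOXTR (SD, n = 3 each), and that of PRDX5 to PRDX4 went from 2.46 ± 0.102 to 4.52 ± 0.0584. The ratio of TXN to GSR, 20.5 ± 1.37 and 20.2 ± 1.39, overlapped between the groups. TXN to TXNRD1 was 2.67 ± 0.268 in siControl and 2.34 ± 0.156 in siOXTR, with overlapping libraries.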
